A study of Mus musculus with 6 samples.

Results

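The transcripts of 7 genes that write, maintain or oxidise DNA methylation were followed in CD31+ckit+Vmed and CD31+ckit+Vhigh cells of the mouse aorta-gonad-mesonephros region (AGM). They are the DNA methyltransferase genes *Dnmt1*, *Dnmt3a* and *Dnmt3b*, the maintenance factor gene *Uhrf1*, and *Tet1*, *Tet2* and *Tet3*. These genes were chosen by symbol, and all 7 were among the 24062 genes counted in each library. Cells were sorted at E10.5 from C57BL/6JOlaHsd embryos carrying the *Gata2Venus* (*G2V*) reporter, with 3 libraries from the intermediate Venus fraction (G2Vi in the labels, here Vmed) and 3 from the high fraction (G2Vh, here Vhigh). The embryos came from *G2V/V* males and C57BL/6J females, so that every cell of both fractions carried a single Venus allele of *Gata2*. Both fractions were gated on CD31 and ckit, no ckit- or Venus-negative fraction was analysed here, and how many embryos went into each library is not given in the sources used here. The replicates are described as independent experiments.

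DNA methylation is copied and erased by distinct enzymes. Dnmt1 restores methylation on the new strand after replication and is brought to hemimethylated CpG sites by Uhrf1, a ubiquitin ligase. Dnmt3a and Dnmt3b set methylation on unmethylated DNA, and the Tet dioxygenases convert 5-methylcytosine to 5-hydroxymethylcytosine and further oxidised bases, which opens a route to demethylation. Dnmt3a and Tet2 are known as regulators of hematopoietic stem cell self-renewal, and Dnmt3b is best known from the early embryo, where it methylates the germline genes and the inactive X chromosome.

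Gene totals ranged from 8296831 to 12035206 counts per library, and 10427 to 18460 genes had at least 1 count. Vhigh replicate 1 had the fewest genes with a count and Vhigh replicate 2 the most. No pair of libraries agreed within sampling noise (chi-square per degree of freedom of 93.7 or more). Of the sort markers, *Kit* was at 64.1, 208 and 59.1 CPM (counts scaled to the gene total of the library) in Vmed replicates 1, 2 and 3 and at 255, 490 and 521 CPM in Vhigh. *Pecam1*, which encodes CD31, had 118 CPM or more in every library. *Gata2*, the gene that carries the reporter, was at 50.3, 29.4 and 68.3 CPM in Vmed and at 39.2, 82.5 and 142 CPM in Vhigh. The fractions overlapped in *Gata2*, and in replicate 1 the Vhigh library was below the Vmed library. The fractions were tested with the quasi-likelihood method of edgeR, with p adjusted over all genes by Benjamini-Hochberg. In it 0 of 12688 genes (0%) passed an adjusted p of 0.05, and 259 (2.04%) had an unadjusted p under 0.05, 110 of them higher in Vhigh (0.867%) and 149 lower (1.17%).

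*Dnmt3b* was the gene of the group that separated the fractions. It was at 33.2, 29.2 and 31.9 CPM in Vmed replicates 1, 2 and 3 and at 160, 329 and 516 CPM in Vhigh replicates 1, 2 and 3. Every Vhigh library was above every Vmed library, and the lowest Vhigh value was 4.83 times the highest Vmed value. The means were 31.4 ± 2.05 CPM (SD, n = 3) in Vmed and 335 ± 178 CPM (SD, n = 3) in Vhigh. The spread therefore lay almost wholly in the Vhigh fraction, where log2 CPM ranged over 1.69 against 0.18 in Vmed. The log2 fold change, given here and throughout as Vhigh over Vmed, was 3.37 (standard error 0.53), which is 10.3-fold with a 95% interval of 4.59- to 23.3-fold from the fit.

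By the quasi-likelihood method of edgeR, *Dnmt3b* had an unadjusted p of 0.00015, rank 2 of 12688 genes, and an adjusted p of 0.66. *Dnmt3b* did not pass the threshold of that test. It was past the threshold in the likelihood ratio test of edgeR (adjusted p = 0.0028), in which 21 genes (0.166%) passed, 11 of them higher in Vhigh (0.0867%). The DESeq2 Wald test gave it an adjusted p of 4.42e-05, among 51 of 12476 genes (0.409%) that passed, 20 of them higher in Vhigh (0.160%). Without a filter on low counts it also passed the quasi-likelihood method of edgeR (adjusted p = 0.0034), as did 37 of 20033 genes (0.185%), 13 of them higher in Vhigh (0.0649%). In the exact permutation test (two-sided) of log2 CPM, p was 0.1, the smallest that 3 libraries against 3 can give. Same-numbered libraries differed by 2.27, 3.49 and 4.01 on the log2 scale in replicates 1, 2 and 3, all with Vhigh higher. With the replicate number as a block the log2 fold change was 3.23 (standard error 0.39), with an adjusted p of 0.57 by quasi-likelihood and 4.45e-05 by the likelihood ratio test of edgeR. With the block, 74 genes (0.583%) passed the latter, 26 of them higher in Vhigh (0.205%). Leaving out any 1 library gave log2 fold changes of 2.91 to 3.67 for *Dnmt3b*.

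Of the 7 genes, *Dnmt3b* was the only one whose fractions did not overlap in CPM, where 4.15% of the 12688 tested genes had every Vhigh library above every Vmed library and 4.71% had every one below (8.87% in either direction). At an unadjusted p under 0.05 it was again 1 of 7, against 0.867% of tested genes that were higher in Vhigh at that level. This count of genes without overlap rested on Vhigh replicate 1. Without that library, *Dnmt1*, *Uhrf1*, *Dnmt3a* and *Dnmt3b* were all higher in both remaining Vhigh libraries than in any Vmed library, 4 of 7 genes against 11.7% of tested genes.

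**Figure D1:**
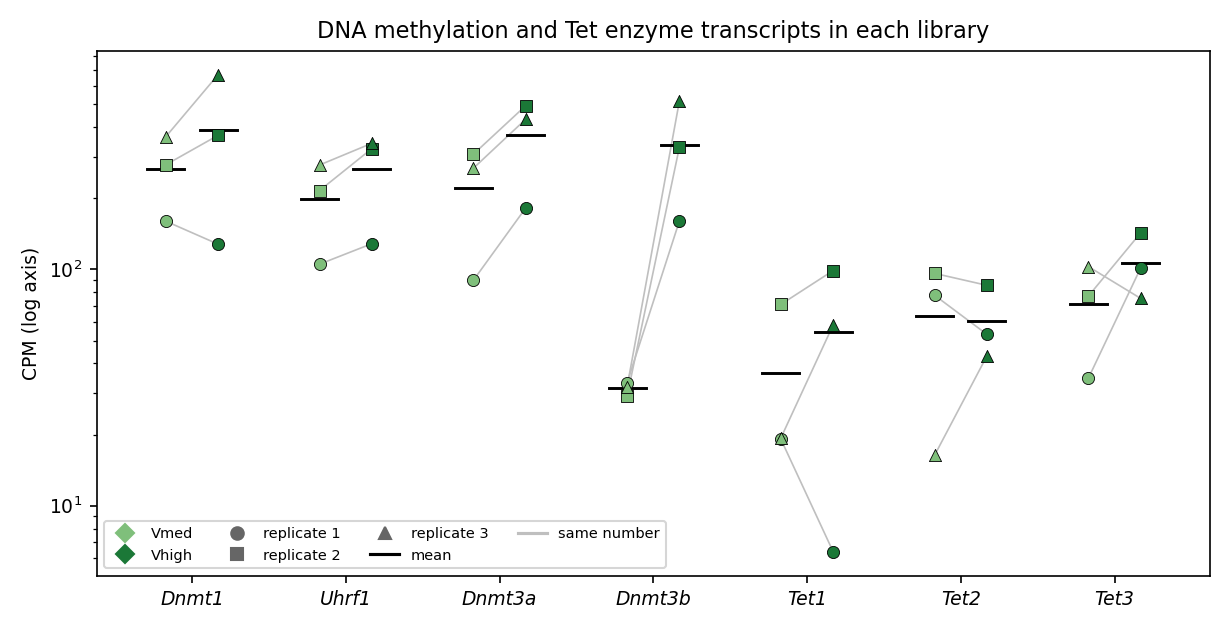
CPM of the 7 genes (log axis) in the 6 libraries, with Vmed in light and Vhigh in dark green, symbols for replicate numbers, grey lines between libraries of the same number and black bars for the means (n = 3). *Dnmt3b* lies between 29.2 and 33.2 CPM in Vmed and between 160 and 516 CPM in Vhigh, while the fractions overlap for the other 6 genes.

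The maintenance genes did not differ beyond the spread between replicates. *Dnmt1* was at 160, 277 and 365 CPM in Vmed replicates 1, 2 and 3 and at 128, 369 and 668 CPM in Vhigh. Replicate 1 was the lowest and replicate 3 the highest in both fractions, and the fractions overlapped. The log2 fold change of *Dnmt1* was 0.50 with a standard error of 0.60 (edgeR, adjusted p = 0.9998), and without Vhigh replicate 3 it was -0.16. *Uhrf1* was at 105, 216 and 277 CPM in Vmed and at 129, 325 and 342 CPM in Vhigh. It was higher in Vhigh in each same-numbered pair, by 0.29, 0.59 and 0.31 on the log2 scale. Of all tested genes, 15.2% were higher in Vhigh in 3 of 3 pairs. The log2 fold change of *Uhrf1* was 0.36 with a 95% interval of -0.85 to 1.56, whose upper end is 2.95-fold. Per length, *Uhrf1* relative to *Dnmt1* stayed between 0.887 and 1.74 in the 6 libraries, a narrower range than that of either gene, as *Dnmt1* spanned 5.22-fold and *Uhrf1* 3.25-fold from the lowest to the highest library.

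*Dnmt3a*, the paralog of *Dnmt3b*, was at 89.9, 307 and 268 CPM in Vmed replicates 1, 2 and 3 and at 182, 493 and 432 CPM in Vhigh. It was higher in Vhigh in 3 of 3 pairs, by 1.01, 0.68 and 0.69 on the log2 scale, but Vhigh replicate 1 lay below Vmed replicates 2 and 3. Its log2 fold change was 0.68 with a standard error of 0.56 and a 95% interval of -0.56 to 1.93 (edgeR, adjusted p = 0.9998). Blocking on the replicate number gave *Dnmt3a* a log2 fold change of 0.76 with a standard error of 0.24, at an unadjusted p of 0.021 and an adjusted p of 0.99 by the quasi-likelihood method of edgeR. In that fit 2 of the 7 genes, *Dnmt3a* and *Dnmt3b*, were higher in Vhigh at an unadjusted p under 0.05, as were 1.80% of the tested genes (4.16% in either direction). *Dnmt1*, *Uhrf1* and *Dnmt3a* were each lowest in the replicate 1 library of either fraction. *Dnmt3b* in Vmed did not follow them, as replicate 1 was the highest of its Vmed libraries, and in Vhigh it was again lowest in replicate 1.

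The Tet genes overlapped between the fractions. *Tet1* was at 19.11, 71.1 and 19.4 CPM in Vmed replicates 1, 2 and 3 and at 6.38, 98.9 and 58.2 CPM in Vhigh. Replicate 2 was the highest library of either fraction, and the lowest Vhigh value rested on 68 counts. Its log2 fold change was 0.49 (standard error 1.06), and -0.18 without Vhigh replicate 2. *Tet2* was at 77.7, 96.2 and 16.4 CPM in Vmed and at 53.1, 85.6 and 43.0 CPM in Vhigh. It was lower in Vhigh in replicates 1 and 2 and higher in replicate 3. Its log2 fold change was -0.11 (standard error 0.80), and 0.18 with the replicate block. *Tet3* was at 34.7, 77.1 and 103 CPM in Vmed and at 102, 143 and 75.4 CPM in Vhigh, higher in Vhigh in 2 of 3 pairs. The log2 fold change of *Tet3* was 0.53 (standard error 0.63). For each Tet gene edgeR gave an adjusted p of 0.9998. The 95% intervals were -1.86 to 2.84 for *Tet1*, -1.89 to 1.66 for *Tet2* and -0.87 to 1.93 for *Tet3* on the log2 scale.

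**Figure D2:**
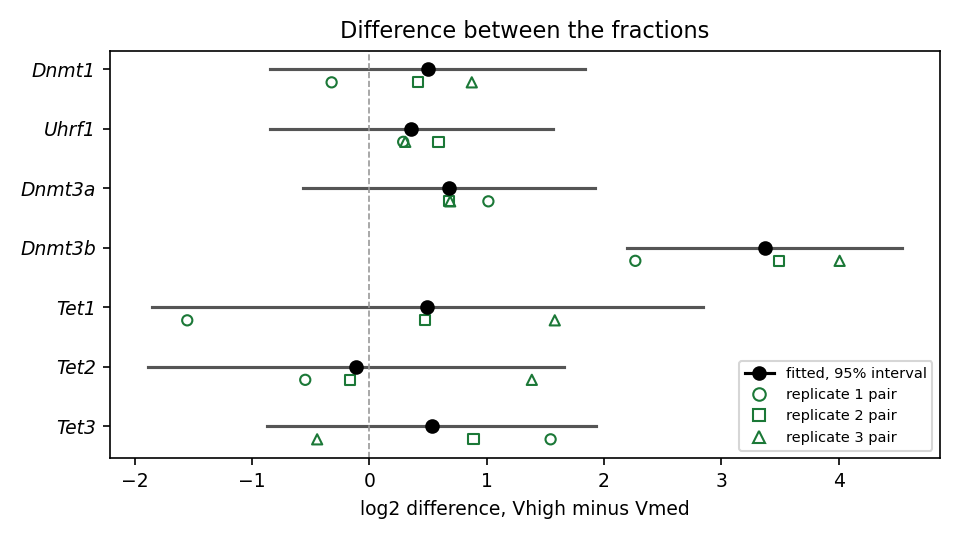
Log2 difference between the fractions for each gene, with the fitted log2 fold change and its 95% interval from edgeR (black) and the log2 CPM difference of each same-numbered pair (green symbols). The interval of *Dnmt3b* runs from 2.20 to 4.54, and those of the other 6 genes include 0.

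Levels of different genes were compared as RPKM, CPM per kilobase of exon-union length. In Vmed the order of the means was *Uhrf1* (46.8 ± 20.4 RPKM), *Dnmt1* (36.2 ± 13.9), *Dnmt3a* (13.3 ± 6.96), *Dnmt3b* (6.15 ± 0.401), *Tet3* (4.28 ± 2.06), *Tet2* (3.76 ± 2.48) and *Tet1* (2.36 ± 1.94), each as mean RPKM and SD over 3 libraries. *Uhrf1* was above *Dnmt1* and *Dnmt1* above *Dnmt3a* in 3 of 3 Vmed libraries. *Dnmt3b* was above *Tet3* in 3 of 3, but only just in Vmed replicate 3 (6.25 against 6.15 RPKM). With the longest transcript as length, *Tet3* was the higher in that library. *Dnmt3a* against *Dnmt3b*, and the neighbours among the Tet genes, changed places between libraries. For the former this depended on the length used. With the longest transcript, *Dnmt3b* was 45.3, 17.5 and 21.1% of the pair in Vmed replicates 1, 2 and 3, below *Dnmt3a* in each. In Vhigh the order was *Dnmt3b* (65.7 ± 34.9 RPKM), *Uhrf1* (62.2 ± 27.8), *Dnmt1* (52.6 ± 36.6), *Dnmt3a* (22.2 ± 9.91), *Tet3* (6.38 ± 2.04), *Tet2* (3.59 ± 1.32) and *Tet1* (3.53 ± 3.00). The first 3 of these changed places between Vhigh libraries, *Dnmt1* was above *Dnmt3a* in 3 of 3, and *Tet3* was above *Tet2* in 3 of 3. *Dnmt3b* thus stood below *Dnmt3a* in the Vmed means and above it in the Vhigh means, and it was above *Dnmt3a* in 3 of 3 Vhigh libraries.

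Shares within a family do not depend on the scaling between libraries. Of the summed RPKM of the 3 Dnmt genes, *Dnmt3b* made up 19.3, 9.25 and 8.71% in Vmed replicates 1, 2 and 3 and 52.6, 44.7 and 46.5% in Vhigh. *Dnmt1* made up 64.6, 60.9 and 68.9% in Vmed and 29.0, 34.7 and 41.6% in Vhigh. Both shares were without overlap between the fractions, and that of *Dnmt3a* overlapped (16.1 to 29.9% in Vmed and 11.9 to 20.5% in Vhigh). Of the de novo pair alone, *Dnmt3b* was 35.4 ± 16.8% (SD, n = 3) in Vmed and 74.1 ± 5.52% (SD, n = 3) in Vhigh. Taking the length of the longest transcript instead, these means were 28.0 and 66.4%. Among the Tet genes no share was without overlap. *Tet3* ranged from 26.2 to 73.5% of the Tet sum in Vmed and from 41.7 to 63.1% in Vhigh, and *Tet2* from 11.6 to 58.2% and from 23.6 to 32.7%. The 3 Dnmt genes summed to 4.14 to 8.57 times the RPKM of the 3 Tet genes in Vmed and 6.19 to 20.1 times in Vhigh, which overlapped.

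**Figure D3:**
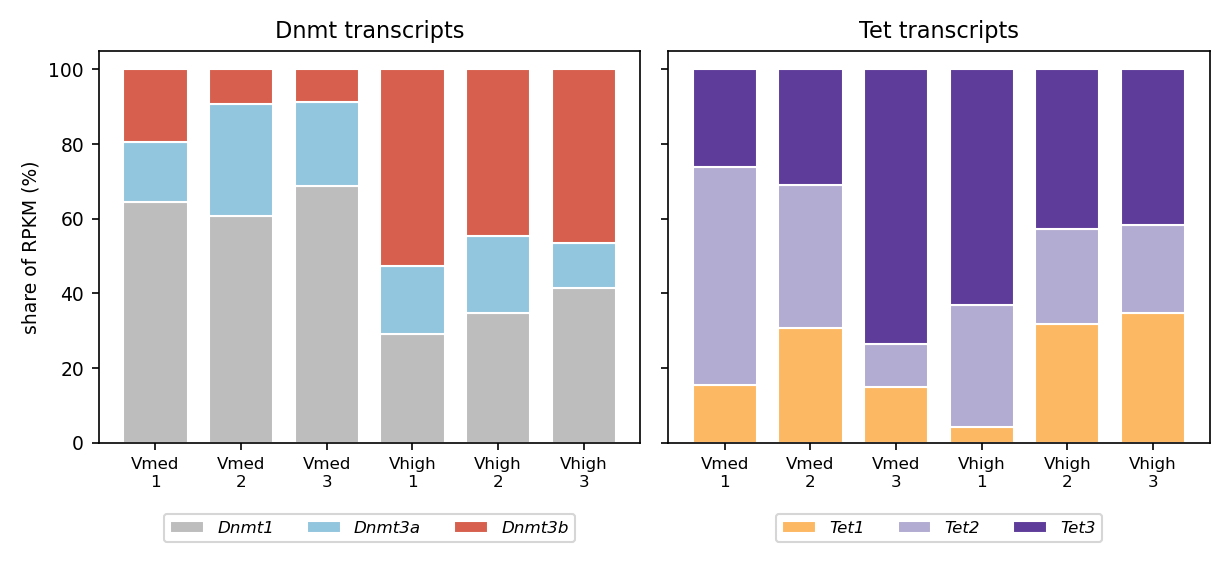
Share of each gene in the summed RPKM of the Dnmt genes (left) and of the Tet genes (right) in each of the 6 libraries, from 0 to 100%. The *Dnmt3b* segment is 8.71 to 19.3% in Vmed and 44.7 to 52.6% in Vhigh, whereas the Tet segments vary between replicates with overlap.

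The genes lie on GRCm38 at chr9:20907209-20959888 (*Dnmt1*, minus strand), chr17:56303321-56323486 (*Uhrf1*, plus), chr12:3806007-3914443 (*Dnmt3a*, plus), chr2:153649450-153687730 (*Dnmt3b*, plus), chr10:62804570-62908996 (*Tet1*, minus), chr3:133463679-133545139 (*Tet2*, minus) and chr6:83362373-83459084 (*Tet3*, minus). Counts are per gene and do not separate isoforms. The exons of *Dnmt3a* share 133 bases with the antisense gene *Dnmt3aos*, which had 0 counts, and whether counting used strand is not given in the sources used here.

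Promoter windows from RefSeq (GRCm38.p6, 250 bases before to 50 bases after a start) were matched for all 7 genes, in 12 windows. They held 2 to 57 CpG sites, where the median of 32851 windows of 300 bases was 7. The *Dnmt3b* window is shown because this gene separated the fractions. Beside it are the most CpG-rich windows of the maintenance genes *Dnmt1* and *Uhrf1*. In *Dnmt1* (chr9:20952574-20952873, minus strand) and *Uhrf1* (chr17:56304063-56304362, plus strand), capitals mark the E2F motif TTTCGCGC or TTTGGCGC and the CCAAT motif, on both strands. In *Dnmt3b* (chr2:153649199-153649498, plus strand), capitals mark the GC box GGGCGG on both strands.
Dnmt1: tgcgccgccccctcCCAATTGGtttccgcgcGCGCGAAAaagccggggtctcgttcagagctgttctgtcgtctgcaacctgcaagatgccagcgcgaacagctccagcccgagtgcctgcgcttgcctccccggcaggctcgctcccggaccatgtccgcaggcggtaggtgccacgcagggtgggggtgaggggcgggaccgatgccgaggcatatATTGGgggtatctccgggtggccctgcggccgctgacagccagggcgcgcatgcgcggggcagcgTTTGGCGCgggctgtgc
Uhrf1: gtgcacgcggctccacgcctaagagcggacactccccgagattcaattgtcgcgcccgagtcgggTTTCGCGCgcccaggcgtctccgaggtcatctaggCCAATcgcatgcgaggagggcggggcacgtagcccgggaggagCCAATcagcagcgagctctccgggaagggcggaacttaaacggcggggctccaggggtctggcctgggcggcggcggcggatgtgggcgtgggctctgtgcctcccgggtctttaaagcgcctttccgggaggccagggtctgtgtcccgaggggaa
Dnmt3b: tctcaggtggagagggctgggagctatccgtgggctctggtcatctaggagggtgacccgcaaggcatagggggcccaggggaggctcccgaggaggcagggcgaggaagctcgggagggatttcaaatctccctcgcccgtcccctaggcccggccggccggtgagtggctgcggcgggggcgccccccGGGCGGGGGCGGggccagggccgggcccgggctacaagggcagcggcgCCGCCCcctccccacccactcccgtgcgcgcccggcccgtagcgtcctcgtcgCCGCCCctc

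The E2F letters were in the *Dnmt1* window 2 times and in the *Uhrf1* window 1 time, in 2 of the 12 windows of these genes and in 0.813% of all windows. CCAAT was in both as well, where 37.4% of all windows hold it, and CCAATTGG in *Dnmt1* reads as a match on either strand. The *Dnmt3b* window held 30 CpG sites and neither the E2F nor the CCAAT letters. It held 4 GC boxes, the *Dnmt1* window shown held 2 and that of *Uhrf1* 3, where they are not in capitals. The GC box was in 10 of the 12 windows and in 35.7% of all windows. The E2F letters and the GC box themselves contain CpG, and the windows compared with were not matched for CpG content. The GATA letters (AGATAA and AGATAG as well as TGATAA and also TGATAG, on both strands) were in 1 of the 12 windows, the *Dnmt1* window at chr9:20959839-20960138, and in 29.8% of all windows. Over the 6 libraries, centred log2 CPM of *Uhrf1* differed from that of *Dnmt1* by a root mean square of 0.31 and from that of *Dnmt3a* also by 0.31. The part of these motifs in the levels of the genes was not tested.

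Among 9556 genes with a mean of at least 10 CPM, the pattern most like that of *Dnmt3b* over the 6 libraries was that of *Nfe2*, which encodes a megakaryocytic and erythroid transcription factor, with a root mean square difference of 0.65 in centred log2 CPM, followed by *Ptpn7* (0.73), a phosphatase gene of hematopoietic cells. *Nfe2* was at 28.3, 19.5 and 10.9 CPM in Vmed and at 41.3, 120 and 137 CPM in Vhigh. *Dnmt1* was closest to *Iars2* (0.13) and *Zbtb17* (0.15), *Uhrf1* to *Rap2c* (0.09), and *Dnmt3a* to *Nup214* (0.10) and *Map2k7* (0.18). *Tet1* was closest to *Gas2l3* (0.38) and *Tbccd1* (0.44), *Tet2* to *Nfat5* (0.23) and *Nvl* (0.24), and *Tet3* to *Clcn3* (0.16) and *Anp32e* (0.18). *Dnmt3b* had the most distant closest genes of the 7. No *Dnmt* or *Tet* gene was nearer to *Dnmt3b* than 1.39. This distance is not scaled, so it includes the difference between the fractions given above and is not separate from it.

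Of 97 related genes, 81 were tested and 0 passed the threshold, with 1 at an unadjusted p under 0.05, against 2.04% of all tested genes. Every Vhigh library was above every Vmed library for 5 of the 81 genes, against 4.15% of all tested genes, and the reverse held for 0. The 5 were *Setdb1*, *Ahcy*, *Hells*, *Mat2a* and *Cdc45*, of which *Cdc45* overlapped once CPM were scaled by TMM, leaving 4. *Setdb1*, a histone H3 lysine 9 methyltransferase gene, was at 20.4, 53.9 and 29.0 CPM in Vmed and at 133, 132 and 101 CPM in Vhigh, and its log2 fold change of 1.81 had a standard error of 0.64 (edgeR, adjusted p = 0.9998). *Hells*, which encodes a chromatin remodeler needed for DNA methylation, was at 51.5, 138 and 122 CPM in Vmed and at 138, 210 and 202 CPM in Vhigh, where Vhigh replicate 1 was just above Vmed replicate 2. *Mat2a*, which makes the methyl donor S-adenosylmethionine, was at 326 to 382 CPM in Vmed and 396 to 675 CPM in Vhigh. *Ahcy*, which clears the product of methylation reactions, was at 13.8 to 23.7 CPM in Vmed and 23.9 to 47.0 CPM in Vhigh. *Cdc45*, a replication helicase gene, was at 112 to 128 CPM in Vmed and 131 to 191 CPM in Vhigh. The log2 fold changes were 1.06 for *Ahcy*, 0.79 for *Hells*, 0.60 for *Mat2a* and 0.31 for *Cdc45*, with standard errors of 0.41 to 1.00, and none of the 4 passed the test.

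By list, the median log2 fold change was 0.11 for 15 cofactors of DNA methylation and related genes. It was 0.13 for 9 genes of families that include readers of methyl-CpG and 0.07 for 8 genes of CXXC proteins, a family that binds unmethylated CpG. For 13 genes of the repair of oxidised or deaminated bases or linked to it, the median was 0.15. The median was 0.06 for 13 genes of methyl donor and 2-oxoglutarate metabolism and 0.18 for 20 S phase genes. That of all tested genes was -0.02 and that of the 7 genes 0.50. S phase genes bear on *Dnmt1* and *Uhrf1*, which are expressed with replication. Summed, they were at 4163 to 6215 CPM in Vmed and 4982 to 6150 CPM in Vhigh, which overlapped. Germline genes that promoter methylation keeps silent, such as *Dazl*, *Ddx4* and *Sycp3*, summed to 0.10 to 31.7 CPM in Vmed and 5.73 to 31.6 CPM in Vhigh, with 3 of 15 tested. These sums came mainly from single genes in single libraries, such as *Brdt* with 27.5 CPM in Vmed replicate 1 and *Sycp3* with 18.1 CPM in Vhigh replicate 1. The limit that a count of 0 allows (3 counts) was 0.249 to 0.362 CPM.

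**Figure D4:**
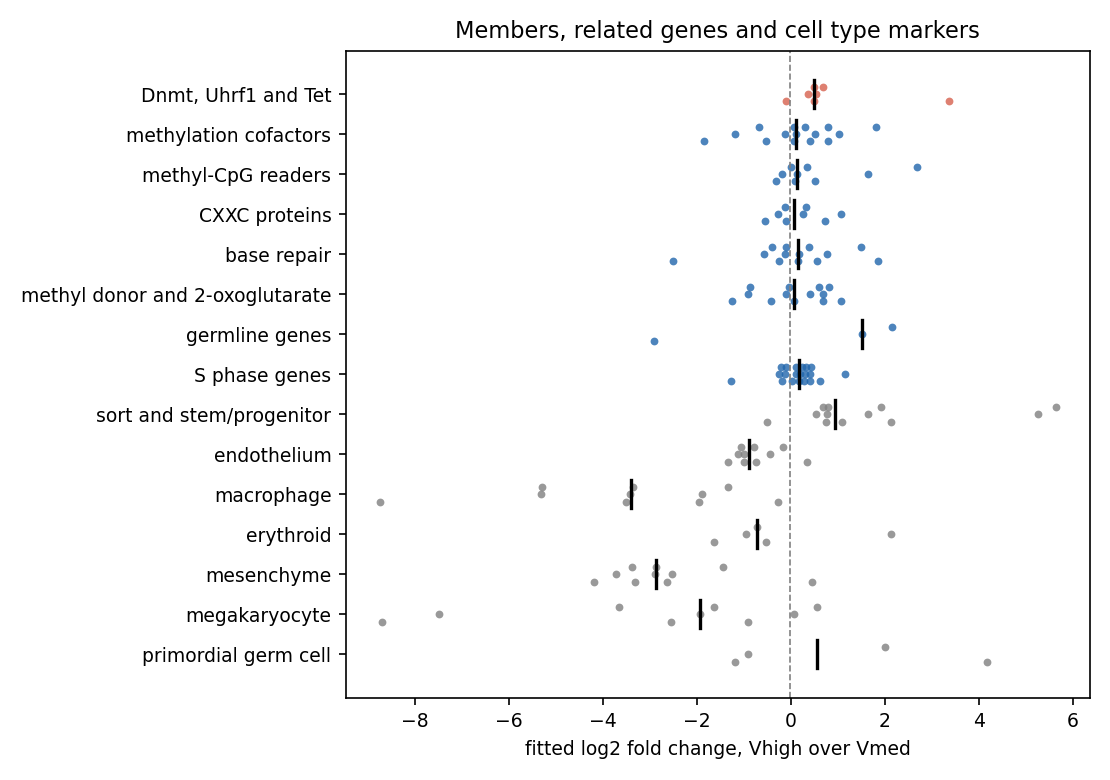
Fitted log2 fold change of every tested gene (points) by list, for the 7 genes (red), the related genes (blue) and cell type markers (grey), with black bars for the list medians and a dashed line for the median of all tested genes (-0.02). *Dnmt3b* is the red point at 3.37, and the medians of the blue lists other than the 3 tested germline genes lie between 0.06 and 0.18.

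Cell type markers differed between the libraries alongside *Dnmt3b*. A list of sort, stem and progenitor genes summed to 580 to 1651 CPM in Vmed and 1106 to 3446 CPM in Vhigh, with a log2 fold change above 0 for 11 of 12 genes. The sums overlapped, and *Cd34* made up 304 to 1501 CPM of them. Every Vhigh library was above every Vmed library for 4 of the 12, *Kit*, *Runx1*, *Myb* and *Hlf*, against 4.15% of all tested genes. *Myb*, which encodes a transcription factor of definitive hematopoiesis, was at 1.83, 1.33 and 5.97 CPM in Vmed and at 73.3, 199 and 104 CPM in Vhigh. *Hlf*, a transcription factor gene of hematopoietic stem cells, was at 0.23 to 2.53 CPM in Vmed and 41.5 to 73.6 CPM in Vhigh. *Runx1*, needed for hematopoietic cells to arise from endothelium, was at 4.58 to 31.2 CPM in Vmed and 41.9 to 141 CPM in Vhigh. By function, the paper found transplantable stem cells only in Vmed, at a later embryonic stage, and most colony-forming progenitors there. It reports mature myeloid pathways among the genes up-regulated in Vhigh. These RNA levels therefore do not mark Vhigh as the stem cell fraction. In bulk libraries, fewer cells of a type and less RNA per cell cannot be told apart. Macrophage genes summed to 1013 to 1758 CPM in Vmed and 142 to 506 CPM in Vhigh (10 of 10 genes below 0), and mesenchyme genes to 1895 to 5255 CPM in Vmed and 284 to 643 CPM in Vhigh (9 of 10 below 0). Endothelial genes summed to 1133 to 5447 CPM in Vmed and 798 to 3654 CPM in Vhigh (9 of 10 below 0). Megakaryocyte genes summed to 371 to 1076 and 265 to 378 CPM (7 of 9 below 0). Every Vhigh library was below every Vmed library for 6 of 10 macrophage and 6 of 10 mesenchyme genes. The same held for 1 of 10 endothelial and 4 of 9 megakaryocyte genes, against 4.71% of all tested genes. The reverse held for 0 genes of these 4 lists. Erythroid genes summed to 154 to 527 CPM in Vmed and 95.8 to 233 CPM in Vhigh. The 4 adult globin genes *Hba-a1*, *Hba-a2*, *Hbb-bs* and *Hbb-bt* were at 0 in every library. Alignments that were not unique, 41.3 to 57.7% of those in a library, were counted for no gene. Whether the 0 counts of the globin genes reflect absent RNA or reads without a unique place was not tested. Primordial germ cells can also carry CD31 and ckit, and their marker genes summed to 6.86 to 42.4 CPM in Vmed and 4.41 to 64.9 CPM in Vhigh, with 4 of 12 tested. Of the macrophage markers, *Adgre1*, which encodes F4/80, was at 29.6 to 60.1 CPM in Vmed and at 0, 0 and 0.25 CPM in Vhigh. No macrophage, mesenchyme or endothelial marker was at 0 in all 6 libraries. The part of these cell types in the values of *Dnmt3b* was not tested.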

How the data were processed

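RNA from sorted CD31+ckit+Vmed and CD31+ckit+Vhigh AGM cells was amplified by the SMARTer protocol and sequenced as single reads. The authors aligned reads with TopHat and Bowtie 1.1.2 to GRCm38/mm10 and deposited raw read counts per gene from HTSeq, without normalization. The annotation and the strand setting are not given in the sources used here. Reads not assigned to a unique gene were left out of the gene totals, which ranged from 8296831 to 12035206. Between 22.8 and 45.0% of the alignments in a file were on genes.

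CPM were computed from each gene total, and RPKM with exon-union lengths from GENCODE M21 (GRCm38). Vhigh was tested against Vmed in R 4.3.3 with edgeR 4.0.16 (filterByExpr, 12688 of 24062 genes, TMM, quasi-likelihood test, fraction as the only term, Benjamini-Hochberg adjustment over all tested genes at 0.05). Standard errors come from the information matrix and the quasi-likelihood dispersion. Log2 CPM used a prior count of 2, and single genes were also compared by exact permutation over 20 arrangements. Alternatives included DESeq2 1.42.0 and limma 3.58.1. The procedure was also run on simulated data, and how many changed genes it recovered is not reported here. The limit for a count of 0 was set at 3 counts and covers counting error only, whereas the intervals from edgeR include the spread between libraries.

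The genes and lists were chosen with earlier results of these data known. The text names the 7 genes, *Kit*, *Pecam1* and *Gata2*, related genes past the threshold or with the largest changes among those without overlap (up to 12), for each of the 7 genes the 2 most similar genes, and marker genes where a list differed alongside a result. For *Uhrf1*, 1 of the similar genes is not reported here. The replicate numbers in the labels were taken to pair the libraries, on the following values. Deviations from the fraction means correlated across genes with r of 0.21, 0.21 and 0.39 in same-numbered pairs and from -0.29 to -0.01 in others. Such deviations sum to 0 within a fraction, so higher values in same-numbered pairs go with lower values in others. Chi-square per degree of freedom was 230, 93.7 and 101 in pairs 1, 2 and 3. It was 156 between Vmed replicate 1 and Vhigh replicate 2, below that of pair 1. The counts without overlap were recomputed without each library and with TMM scaling after the data were seen.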

Additional observations from a re-analysis of the deposited data

How the results depend on the processing

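Of 19 alternatives for each gene, all kept the direction for *Dnmt3b*, *Dnmt3a*, *Uhrf1* and *Tet3*, with ranges over the fits that lacked 1 library of 0.32 to 0.97 for *Dnmt3a*, 0.07 to 0.69 for *Uhrf1* and 0.21 to 0.91 for *Tet3*. *Dnmt3b* passed the threshold in 4 of them, with log2 fold changes of 3.37 without a low-count filter (edgeR, adjusted p = 0.0034), 3.37 in edgeR's likelihood ratio test, 3.32 in the DESeq2 Wald test and 3.23 in the likelihood ratio test with the replicate block. Its adjusted p over the alternatives ranged from 4.42e-05 to 1.00. Over the fits that lacked 1 library, the log2 fold change ranged from -0.16 to 0.89 for *Dnmt1*, from -0.18 to 1.34 for *Tet1* and from -0.57 to 0.22 for *Tet2*. *Tet2* also changed sign in limma-voom (0.25) and under the replicate block, by quasi-likelihood (0.18) and by the likelihood ratio (0.17). The cause was not tested. The median of all genes was -0.02, and it was -0.14 in limma-voom, -0.11 with the block and -0.12 without Vhigh replicate 2 or without Vhigh replicate 3.

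The number of genes past the threshold was 37 without a filter, 21 in the likelihood ratio test, 51 in DESeq2 and 74 in the likelihood ratio test with the replicate block, and 0 to 1 with libraries left out. At an adjusted p of 0.05 the block changed no other call of the 7 genes, and 0 of the related genes passed in any of the 19 alternatives. At an unadjusted p under 0.05 by quasi-likelihood, the block moved the 7 genes from 1 to 2 and the 81 tested related genes from 1 to 4. Over all tested genes, the share at that level rose from 2.04% to 4.16% with the block. The number of the 7 genes without overlap between the fractions was 1 to 4 with libraries left out, the 4 being without Vhigh replicate 1. With the longest transcript as length, the mean share of *Dnmt1* among the Dnmt genes in Vmed was 60.2%, those of *Dnmt3a* and *Dnmt3b* in Vhigh 22.3 and 43.6%, that of *Dnmt3b* in the de novo pair in Vhigh 66.4%, and that of *Tet2* among the Tet genes in Vhigh 33.0%. With 3 libraries per fraction and a biological coefficient of variation of 1.16 over all genes, 95% intervals of the other 6 genes spanned 2.41 to 4.70 on the log2 scale.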

Other observations

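The genes that follow were chosen after their values were seen. *Dnmt3b*, *Zbtb24*, *Cdca7* and *Hells* are the genes whose human counterparts are mutated in immunodeficiency with centromeric instability and facial anomalies. *Cdca7*, the partner of *Hells*, was at 187, 247 and 162 CPM in Vmed replicates 1, 2 and 3 and at 204, 326 and 339 CPM in Vhigh, higher in 3 of 3 pairs with overlap between the fractions (log2 fold change 0.51, standard error 0.44). *Zbtb24*, a transcriptional activator of *Cdca7*, was at 16.2, 11.8 and 19.2 CPM in Vmed and at 0, 11.8 and 22.5 CPM in Vhigh. *Dnmt3l*, the inactive cofactor of Dnmt3a and Dnmt3b in germ cells and early embryos, had 8 counts in Vmed replicate 2, 23 counts in Vhigh replicate 2 and 0 counts in the other libraries. *Zfp57*, which guards methylation at imprinted regions, was at 25.2, 106 and 61.6 CPM in Vmed and at 1.59, 20.4 and 33.2 CPM in Vhigh, lower in Vhigh in 3 of 3 pairs with overlap (log2 fold change -1.84, standard error 1.11). *Dnmt3l* was not tested, having failed the filter on low counts, and none of the other genes passed the test.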
